A study of Mus musculus with 15 samples.

Results

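Normal colon epithelium of Apc+/Min-FCCC mice fed atorvastatin was compared between animals that carried colon tumors and animals that did not. The labels assigned 8 of the 15 arrays of the series to this comparison, 4 of tumor-bearing and 4 of tumor-free epithelium. The other 7 arrays held adenoma cells (3 from untreated mice and 4 from mice given sulindac with atorvastatin) and served here as reference levels and in the shared estimate of spread. All animals were male and carried a mutated Apc allele on a C57BL/6J background, which leads to colorectal adenomas, so the tumor-free mice were mutant as well. Per the labels' protocols, tumor status was established by colonoscopy when the mice were 6 to 8 weeks old, and both epithelium groups then ate chow with 100 ppm atorvastatin for 7 days. Strain, sex, age and treatment are written out for the tumor-free samples. The tumor-bearing samples carry the cell type, the tumor status and the drug, and their other details come from the shared protocol. That protocol names untreated chow or sulindac with atorvastatin for tumor-bearing mice, whereas the labels of these 4 arrays name atorvastatin alone, and the labels were followed. No epithelium of untreated mice was analysed here, so the comparison bears on tumor status under the drug and not on the drug. Whether an array held RNA of 1 mouse or of several was not given in the sources used here.

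Atorvastatin is a statin, a class of drugs that block the mevalonate pathway, which supplies cholesterol and the isoprenoid groups that anchor small GTPases to membranes. Cells short of sterol activate the transcription factor SREBP2, which raises transcription of the synthesis enzymes. The Apc protein holds the Wnt pathway in check by promoting the breakdown of beta-catenin, and adenomas that have lost Apc express Wnt targets at high levels. The colon epithelium renews from stem cells at the crypt base into absorptive colonocytes, mucus-secreting goblet cells, hormone-secreting enteroendocrine cells and tuft cells.

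Each level below is the log2 of a spot's processed intensity minus the 75th percentile of its own array, so a level of 1 means 2-fold the intensity at that percentile. A difference is the mean of the tumor-bearing samples minus the mean of the tumor-free samples on this log2 scale, with a 95% confidence interval from limma. Arrays within a group were compared before averaging. Tumor-free arrays 3 and 4 differed with an SD of 0.17 (log2, over probes), below their spot noise of 0.22. Tumor-bearing arrays 1 and 3 differed with an SD of 0.10, below their spot noise of 0.20. Each pair therefore differed by less than the noise and was counted as 1 sample, leaving n = 3 and n = 3. The samples are given throughout in the order tumor-free 1, 2 and 3 with 4, then tumor-bearing 1 with 3, 2 and 4.

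A pair of arrays from different groups was also near-identical. Tumor-free array 2 and tumor-bearing array 2 differed with an SD of 0.18, level with their spot noise of 0.18, and correlated at r = 0.994 over probes. Tumor-free array 2 differed from the other tumor-free arrays with SDs of 0.85 to 0.92, and from tumor-bearing arrays 1 and 3 with SDs of 0.68 and 0.62. The labels give no reason for this likeness, and whether both arrays hold the same RNA was not tested. Both were kept in their labelled groups, and results are also given without them. Tumor-bearing array 4 differed from each of the other 7 arrays with SDs of 0.88 to 1.12. That sample lay more than 4-fold below all 5 other samples for 452 genes and more than 4-fold above them for 102, of 17582 genes. Tumor-bearing sample 1 with 3 followed, with 264 and 21 such genes. The other 4 samples lay apart for at most 51 genes below and 37 above.

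**Figure D1:**
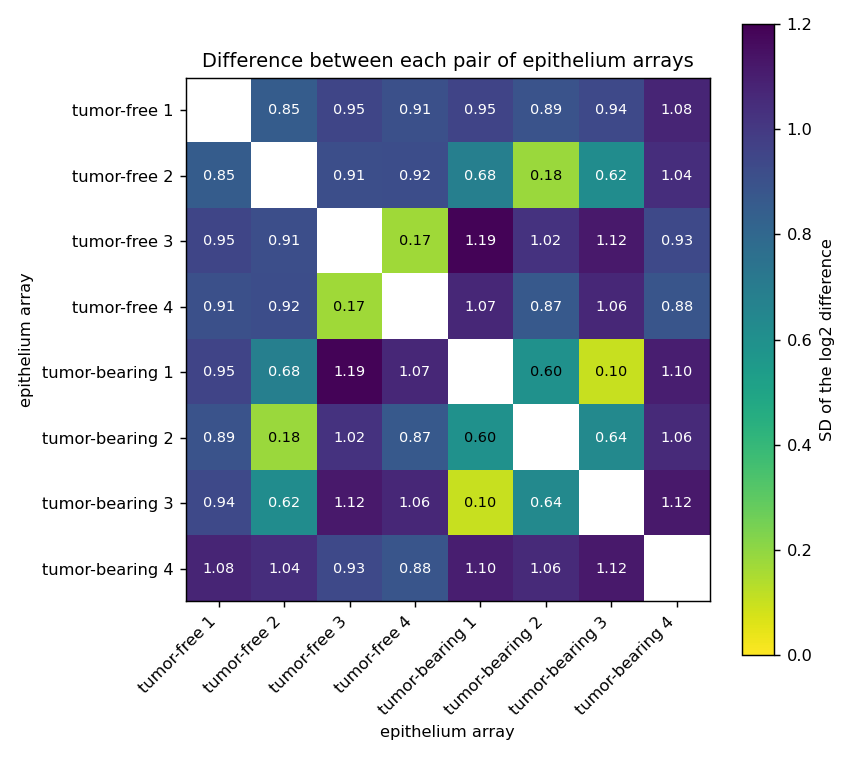
SD of the log2 difference between each pair of the 8 epithelium arrays, over probes well above background on both. The pairs near 0.2 or lower are tumor-free 3 with 4 (0.17), tumor-bearing 1 with 3 (0.10) and array 2 of both groups (0.18), and tumor-bearing array 4 stands at 0.88 to 1.12 from the rest.

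Detection differed between the groups. On the tumor-free arrays 66.3% to 75.5% of probes were well above background, against 59.8%, 68.1%, 57.2% and 56.5% on tumor-bearing arrays 1 to 4. A reading that is not well above background bounds a level without measuring it. The dimmest signal still well above background lay at -4.92, -5.58 and -5.16 on tumor-bearing arrays 1, 3 and 4 and between -6.15 and -6.98 on the other 5. No slide or scan date was shared between the groups, so scan date and tumor status cannot be told apart by a comparison within 1 date. Outlier flags covered 7.81% of spots on tumor-bearing array 1 and at most 0.772% on the others.

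All 12 epithelial markers on the array were well above background on all 8 arrays. Epcam, the epithelial adhesion molecule, lay at 6.01, 5.83 and 5.22 in tumor-free and 5.74, 5.91 and 4.81 in tumor-bearing samples. The microdissected material also held stroma: Col1a2, Col3a1 and Acta2 were well above background on all 8 arrays. Their levels were 5.07 to 5.50 for the fibroblast collagen Col1a2, 5.13 to 6.06 for Col3a1 and 4.21 to 5.40 for Acta2, the actin of smooth muscle and myofibroblasts. The Y-linked genes Ddx3y, Eif2s3y and Kdm5d were well above background on all 8 arrays. The sex check also held Y-linked Uty and Xist, a marker of female cells. All 5 genes were well above background on tumor-free array 1 and tumor-bearing array 2. The source of the Xist signal was not tested. In such bulk material fewer cells of a type and less RNA per cell cannot be told apart.

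Across 17644 genes tested, none passed limma's test at a Benjamini-Hochberg adjusted p of 0.05 (0.0% called), and the lowest adjusted p was 0.994. An unadjusted limma p under 0.05 was reached by 500 genes (2.83%), 210 of them with higher and 290 with lower values in tumor-bearing epithelium. These p-values measure the spread between the deposited samples, which may be partly technical. The groups did not overlap, with tumor-bearing higher, for 747 genes (4.23%), and with tumor-bearing lower for 566 (3.21%). The interval of the difference lay wholly within 2-fold in either direction for 1661 genes (9.41%). The median half-width of the interval was 1.11, so for a typical gene a difference of about 2-fold could not be told from 0. Without array 2 of both groups 18285 genes were tested, none was called by limma (0.0%), 1177 (6.44%) had an unadjusted p under 0.05, and 48.1% had a difference above 0.

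The 10 named genes with the highest moderated t all had groups that did not overlap, beside 4.23% of all genes tested. They were chosen by t from these same values, which favours such groups, so this adds no support. Pthlh, which encodes the parathyroid hormone-related peptide, lay at -0.43, 0.47 and -0.01 in tumor-free and at 1.33, 2.86 and 2.65 in tumor-bearing samples, a difference of 2.27 (1.07 to 3.47). Serpinf2, the plasmin inhibitor alpha-2-antiplasmin, lay at -2.09, -0.63 and -1.35 against 0.46, 2.56 and 2.82, a difference of 3.30 (1.54 to 5.06). D2hgdh, the mitochondrial D-2-hydroxyglutarate dehydrogenase, lay at -3.30, -2.45 and -3.05 against -0.84, 0.96 and 1.37, a difference of 3.43 (1.55 to 5.32). In all of them the tumor-bearing samples were the 3 highest, and the adjusted p in limma was 0.994 for each. Pitpnm2 followed with a difference of 3.10, Igfbp5, an insulin-like growth factor binding protein, with 1.57, and Gsto2, an omega-class glutathione transferase, with 1.84. The remaining 4 were Hapln4 (2.28), the glucagon receptor Gcgr (1.30), Plk5 (1.57) and the chemokine receptor Ccr10 (2.57), with levels below -2 in every sample. Of these, Hapln4 and Gcgr were well above background on 3 of 4 tumor-free arrays and Ccr10 on 2.

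The probes of 5 of these 10 genes shared a run of bases, GTCTCCC, which was noticed after their values were seen. With features that have no gene name included, 4 of the 10 of highest moderated t held it. The first 30 bases of each 60-base probe are shown because the position of this run went with the size of the difference. Each is written 5′ to 3′ as in the array design, with the run in capitals, and is placed on mouse build mm7.
Pthlh, chr6:147330723-147330782, minus strand: tgggatcaaactGTCTCCCcaggaaactgc
Serpinf2, chr11:75513551-75513610, minus strand: gGTCTCCCaagcttagactggccttggtgt
D2hgdh, unplaced sequence Un_random, bases 743711 to 743770, plus strand: gaggaaGTCTCCCagattcttaggcactgc
Pitpnm2, chr5:123365018-123365077, minus strand: tttGTCTCCCttaagatttcctttggctcg
Igfbp5, chr1:73102653-73102712, minus strand: aatagaattttccttggtGTCTCCCatcta
No gene model of mm7 was used here, so the part of the transcript under each probe is not stated.

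The near-identical arrays disagreed at these probes. Tumor-bearing array 2 minus tumor-free array 2 was 2.39 for Pthlh, 3.18 for Serpinf2, 3.41 for D2hgdh and 2.66 for Pitpnm2, where the median over all probes was 0.02. Serpinf2 lay at -0.10 on tumor-free array 3 and -2.60 on tumor-free array 4, although those arrays otherwise differed with an SD of 0.17. Where the gene had another probe, its difference was smaller: -0.12 for D2hgdh and 0.70 for Igfbp5, whose other probes lack the run. Gsto2, whose probe lacks the run, also differed between the arrays numbered 2, by 1.69, while Plk5 and Ccr10 differed there by 0.28 and 0.34.

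The run GTCTCCC, read on the probe strand, occurred in 80 of 41174 probes (0.194%), and its reverse complement GGGAGAC in 125 (0.304%). Of the 80, 76 were well above background on all 8 arrays (95%), against 46.2% of all probes and 51.2% of those with the reverse complement. Their median difference between the groups was 0.61, with 73 of 76 above 0, beside 0.04 for all probes and 0.24 for the reverse complement. The groups did not overlap, tumor-bearing higher, at 33 of the 76 (43.4%), beside 4.52% of all probes and 4.69% with the reverse complement. By where the run started, the median difference was 1.99 at bases 1 to 15 (17 probes), 0.86 at bases 16 to 30 (15 probes) and 0.46 at bases 31 to 54 (44 probes). Between array 2 of both groups the same medians were 1.99, 0.82 and 0.40. Of the 210 tested genes with higher values and an unadjusted limma p under 0.05, 16 (7.62%) were read by a probe with the run, as were 0 of the 290 with lower values and 0.391% of all tested genes. The primer used in the amplification was not given in the sources used here, and the part of this run in the result was not tested. Of the 625 list members tested below, 4 were read by such a probe: Ccl4, Slco2a1, Sox10 and Tapbp.

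**Figure D2:**
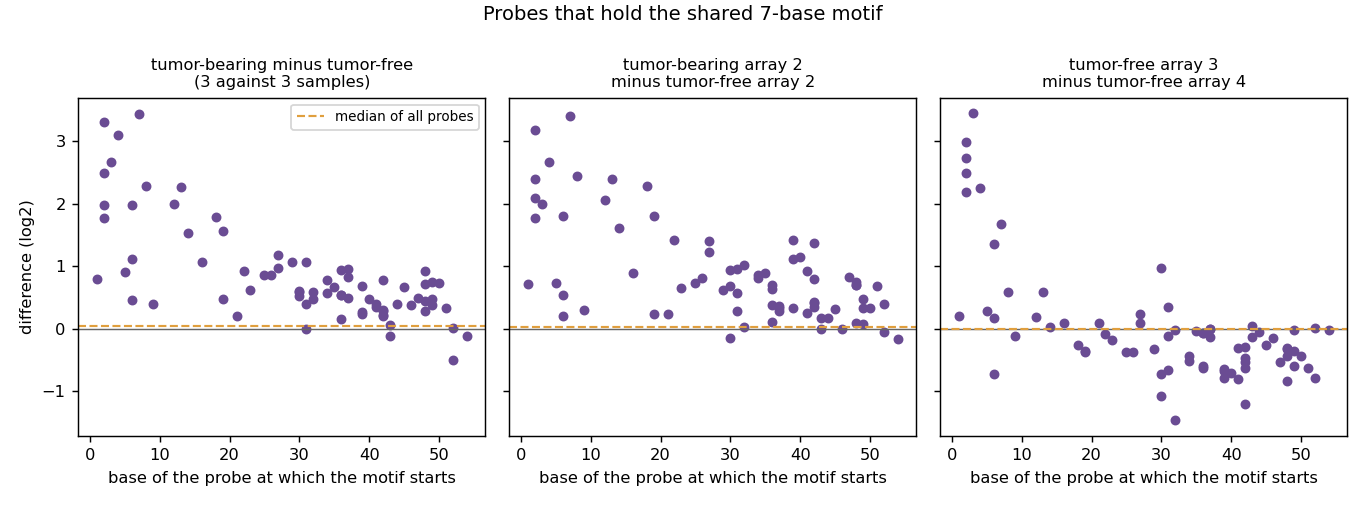
Difference in log2 level against the base of the 60-base probe at which GTCTCCC starts, for tumor-bearing minus tumor-free epithelium, array 2 of tumor-bearing minus array 2 of tumor-free, and tumor-free array 3 minus array 4; the dashed line is the median of all probes. In the first and second panels the median falls from 1.99 at starts 1 to 15 to 0.46 and 0.40 at starts 31 to 54.

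The genes of cholesterol synthesis and uptake showed no difference past the test. None of the 24 members, all tested, was called or had an unadjusted p under 0.05 in limma (beside 2.83% of all genes), 9 of 24 had differences above 0 (beside 51.2%), and the median difference was -0.09 (all genes 0.01). Hmgcs1, the synthase that makes HMG-CoA, lay at 6.49, 6.26 and 5.39 in tumor-free and 6.33, 6.14 and 5.49 in tumor-bearing samples, a difference of -0.06 (-0.99 to 0.88). It was among the brighter genes of every sample, and its groups overlapped closely. Sqle, squalene epoxidase, lay at 5.20, 5.50 and 5.07 against 5.23, 5.52 and 4.44, a difference of -0.19 (-1.05 to 0.67). Tumor-bearing sample 4 was the lowest of the 6 for Sqle. The list ranged from Cyp51, the lanosterol demethylase, at -0.82 (-1.73 to 0.09) to Mvk, mevalonate kinase, at 0.76 (-0.16 to 1.68). Without tumor-bearing array 4 the median was 0.15, where that of all genes was 0.20.

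**Figure D3:**
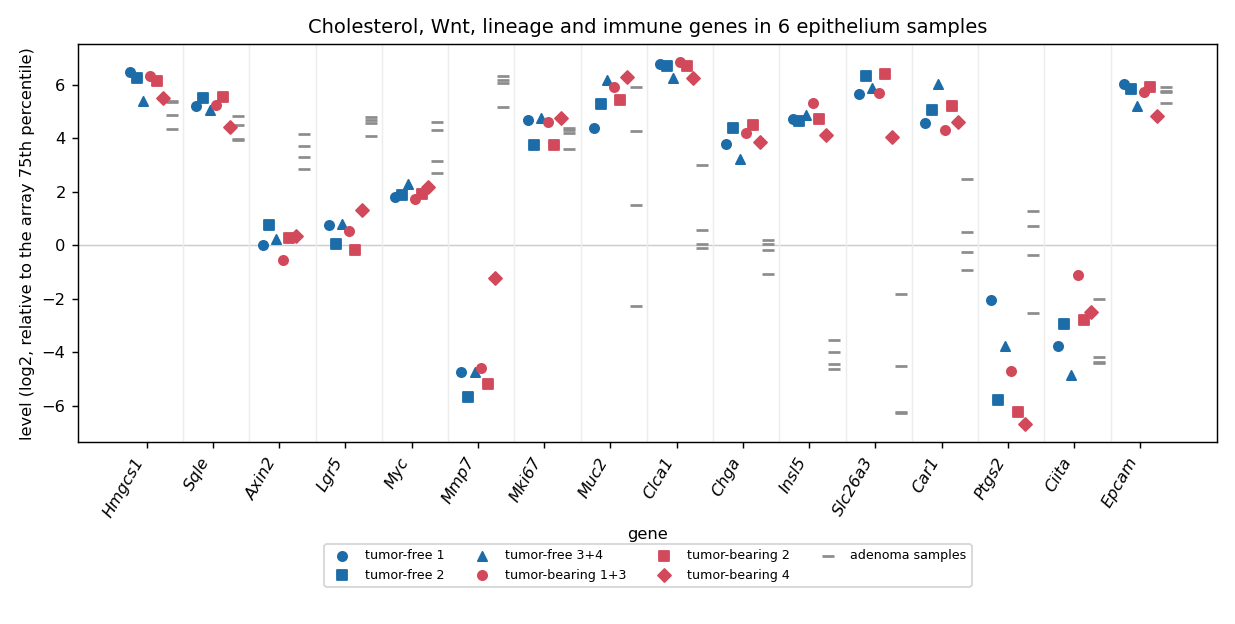
Levels (log2 relative to the array's 75th percentile) of 16 panel genes in the 3 tumor-free and 3 tumor-bearing samples, one symbol a sample, with the 4 adenoma samples as grey dashes. For Hmgcs1, Myc and Mki67 the groups overlap, while Ciita is higher in every tumor-bearing sample.

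Sterol efflux and the related lipid lists were no different in this respect. Of the 11 tested efflux genes none was called or had an unadjusted p under 0.05 in limma, with a median of 0.21. Apoe, the apolipoprotein that takes up effluxed cholesterol, was the highest of them at 1.03 (-0.32 to 2.38). Among 13 fatty acid synthesis genes 2 had an unadjusted p under 0.05 and none was called, with a median of 0.07. Acacb, the mitochondrial acetyl-CoA carboxylase, lay no higher than -1.98 in tumor-free and no lower than -1.93 in tumor-bearing samples, a difference of 1.65 (0.27 to 3.03, adjusted p = 0.994 in limma). Acsl3, an acyl-CoA synthetase, lay at 2.99, 2.79 and 3.30 against 1.63, 2.77 and 1.09, a difference of -1.20 (-2.28 to -0.11, adjusted p = 0.994 in limma). For both genes the groups parted only narrowly. The arrays numbered 2 lay side by side at the border for Acsl3. For Acacb tumor-free arrays 1 (-1.98) and 2 (-1.99) were level there, next to tumor-bearing array 2. The list of protein prenylation enzymes and small GTPases had 10 of 16 members below 0, 1 with an unadjusted p under 0.05, none called, and a median of -0.38 (-0.03 without tumor-bearing array 4). Rhob, a short-lived small GTPase, lay at 2.16, 1.02 and 2.92 against -0.03, 0.91 and -2.11, a difference of -2.44 (-4.57 to -0.32). Without tumor-bearing array 4 the difference of Rhob was -1.59. Rhoa, its close relative, lay at 2.21 or above in tumor-free and 2.20 or below in tumor-bearing samples, a difference of -0.79 (-1.65 to 0.07).

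Wnt targets did not pass the test in either direction, and both epithelia lay far below the adenomas. Of 19 tested targets none was called and 1 had an unadjusted p under 0.05 in limma, 11 were above 0, and the median was 0.11 (-0.17 without tumor-bearing array 4). Axin2, the feedback inhibitor of the pathway, lay at 0.02, 0.75 and 0.25 in tumor-free and -0.55, 0.29 and 0.35 in tumor-bearing epithelium, and at 2.84 to 4.16 in the 4 adenoma samples. Lgr5, the stem cell receptor for R-spondins, lay at 0.75, 0.05 and 0.79 against 0.53, -0.16 and 1.33, and at 4.09 to 4.79 in adenomas. Neither gene separated the epithelia, with differences of -0.31 (-1.21 to 0.59) and 0.04 (-0.98 to 1.05). The summed level of the 24 Wnt targets on the array, in multiples of the 75th percentile, was 29.7 to 45.5 in tumor-free, 42.3 to 51.5 in tumor-bearing and at least 287 in adenoma samples. Mmp7, a matrix metalloproteinase of intestinal adenomas, lay at -4.74, -5.67 and -4.73 against -4.57, -5.17 and -1.24, and at 5.17 to 6.33 in adenomas. Its highest epithelial value, in tumor-bearing sample 4, was still far below every adenoma sample. Ephb3, which helps position cells along the crypt, was the member with an unadjusted p under 0.05, at 1.00, 1.59 and 0.64 against 2.06, 1.79 and 2.17, a difference of 0.93 (0.04 to 1.82, adjusted p = 0.994 in limma).

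No stem cell or proliferation gene passed the test. The 12 tested stem and crypt base markers had a median of 0.07, none called and none with an unadjusted p under 0.05 in limma; Olfm4 was not well above background on any of the 8 arrays. Among 28 tested cell cycle genes none was called, none had an unadjusted p under 0.05, 20 were above 0 and the median was 0.13. The interval lay within 2-fold for 1 of the 12 and 3 of the 28, beside 9.41% of all genes. Mki67, the proliferation marker, lay at 4.68, 3.76 and 4.74 against 4.60, 3.73 and 4.75, a difference of -0.03 (-1.02 to 0.96). Myc lay at 1.81, 1.89 and 2.27 against 1.73, 1.91 and 2.16, a difference of -0.06 (-0.83 to 0.72). For Mki67 the low sample of each group was array 2. Apc itself lay at 1.38, 0.83 and 1.30 against 1.16, 0.65 and 0.29, and Ctnnb1, which encodes beta-catenin, at 6.13, 5.42 and 5.60 against 5.25, 5.31 and 4.20. The Ctnnb1 groups did not overlap, with the arrays numbered 2 at the border, and the difference was -0.80 (-1.75 to 0.16).

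Goblet and enteroendocrine markers had mostly positive differences, with 12 of 13 and 9 of 12 above 0 (51.2% of all genes). Without array 2 of both groups 11 of 13 goblet markers were above 0, with a median of 0.27. Of the enteroendocrine markers 7 of 14 were then above 0, with a median of 0.01, so their lean rested on those arrays. Tuft markers were evenly split, with 5 of 10 above 0 and a median of 0.01. No tuft marker was called or had an unadjusted p under 0.05 in limma. Of the 13 tested goblet markers 1 had an unadjusted p under 0.05, none was called, and the median was 0.17. Without tumor-bearing array 4 the goblet median was 0.26, beside 0.20 for all genes. Clca1 and Zg16, secreted goblet cell products, lay between 6.25 and 6.98 in all 6 samples, with differences of 0.03 (-1.22 to 1.28) and 0.06 (-1.77 to 1.89). Clca1 was lowest on tumor-free array 4 (6.18) and highest on tumor-bearing array 1 (6.95). Of the epithelium arrays, these had the highest (12.88) and the lowest (12.09) 75th percentile. Before that percentile was subtracted, both genes read nearly alike on every array, so their levels largely mirrored it. Whether a ceiling of the signal set these small differences was not tested, so they do not show likeness. Spdef, a transcription factor of goblet cell maturation, lay at 1.36, 2.77 and 1.88 against 3.23, 2.84 and 5.28, a difference of 1.78 (0.21 to 3.36, adjusted p = 0.994 in limma). Its tumor-bearing samples were all above the tumor-free ones, with both arrays numbered 2 at the border. Hes5, a Notch-regulated repressor, lay at -3.41, -2.94 and -4.56 against -1.15, -2.87 and -2.03, a difference of 1.62 (0.42 to 2.82). Of 17 tested Notch and secretory fate genes 9 were above 0, 2 had an unadjusted p under 0.05, none was called, and the median was 0.08. Enteroendocrine markers (12 tested, 3 with an unadjusted p under 0.05, none called, median 0.07) held members on both sides. Cck, the hormone cholecystokinin, differed by 1.71 (0.27 to 3.14). The granin Scg2 had the lowest value of the list and was well above background on only 1 tumor-bearing array, so no size is given. Insl5, a hormone of distal colon L cells, lay at 4.71, 4.64 and 4.86 against 5.32, 4.73 and 4.14.

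The transport genes of the surface epithelium had lower values in tumor-bearing epithelium, and tumor-bearing array 4 carried most of that. Of 25 ion and water transport genes, all tested, 22 were below 0 and the median was -0.54 (all genes 0.01), with none called and 1 with an unadjusted p under 0.05 in limma. Without tumor-bearing array 4 the median was -0.00, beside 0.20 for all genes. Atp12a, the colonic H+/K+-ATPase, lay at 1.94, 1.51 and 2.46 against 0.62, 1.64 and -6.20. Aqp8, a water channel of surface colonocytes, lay at 6.38, 6.40 and 6.10 against 6.59, 6.48 and 3.31. Slc26a3, the chloride/bicarbonate exchanger, lay at 5.64, 6.33 and 5.87 against 5.70, 6.40 and 4.06. In each of these genes sample 4 was the lowest of the 6, and its Atp12a reading was not well above background. Tumor-bearing sample 1 with 3 was also below the tumor-free range for Atp12a, whose difference without array 4 was -0.84. For Aqp8 and Slc26a3 the other tumor-bearing samples lay within or just above the tumor-free range. The summed level of the list was 599 to 633 in tumor-free and 272 to 613 in tumor-bearing samples. Absorptive colonocyte markers, which share members with that list, had a median of -0.30 over 16 genes, with none called, and 0.26 without tumor-bearing array 4.

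Cell junction genes showed a similar pattern. In 4 of 24 members the groups did not overlap, with tumor-bearing lower, beside 3.21% of all genes. Of 24 tested, 16 were below 0, 2 had an unadjusted p under 0.05, none was called, and the median was -0.45 (-0.01 without tumor-bearing array 4). Tjp1, the tight junction scaffold ZO-1, lay at 0.66, -0.97 and 0.94 against -2.11, -1.05 and -1.22, a difference of -1.67 (-3.05 to -0.29). Without array 4 its difference was -1.79. Its tumor-bearing samples were the 3 lowest, with tumor-free sample 2 just above them. Cldn23, a claudin of the surface epithelium, lay at 3.24, 2.55 and 3.72 against 2.23, 2.51 and 1.63, a difference of -1.05 (-2.01 to -0.09). Cdh1, the adherens junction protein E-cadherin, lay at 5.62, 5.35 and 5.46 against 5.25, 5.33 and 4.42, a difference of -0.47 (-1.31 to 0.37). In all 3 the border between the groups lay between the near-identical arrays numbered 2. Those arrays differed there by less than their spot noise of 0.18. None of these 3 had an adjusted p under 0.05 in limma. Among xenobiotic genes (24 tested, 12 above 0, 1 with an unadjusted p under 0.05, none called) the median was -0.01, and Cyp2c55, a cytochrome P450 of the colon, lay at 2.72, 1.53 and 3.89 against 1.02, 1.64 and 3.09.

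**Figure D4:**
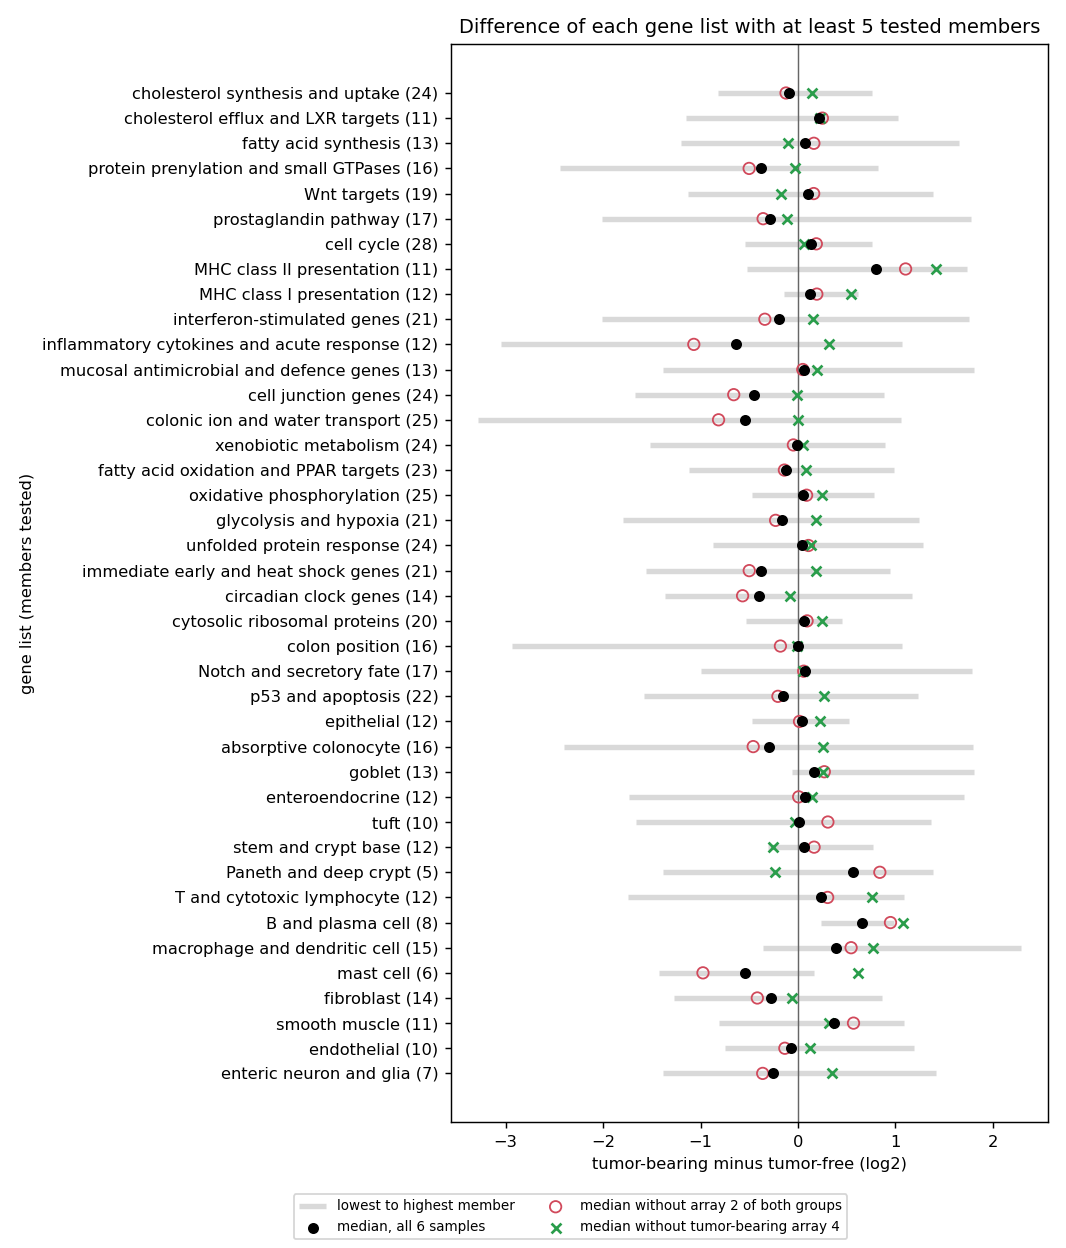
Median difference (log2, tumor-bearing minus tumor-free) of each list with at least 5 tested members as a black dot, with a grey bar from its lowest to its highest member; open circles leave out array 2 of both groups and crosses leave out tumor-bearing array 4. MHC class II, ion transport and cell junction medians lie at 0.80, -0.54 and -0.45, and the last 2 at -0.00 and -0.01 without array 4.

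MHC class II genes had mostly positive differences without passing the test. Of 11 tested members 10 were above 0, 1 had an unadjusted p under 0.05, none was called, and the median was 0.80, with 1.41 when tumor-bearing array 4 was left out and 1.10 without array 2 of both groups. Over all 29 settings tried the median lay between 0.40 and 1.41. The summed level of the 12 members on the array was 111, 137 and 90.4 in tumor-free and 187, 136 and 41.1 in tumor-bearing samples. Thus 1 tumor-bearing sample was above the tumor-free range, and sample 4 was the lowest of the 6. Ciita, the transactivator of these genes, lay at -3.77, -2.93 and -4.86 in tumor-free and -1.10, -2.78 and -2.49 in tumor-bearing samples, a difference of 1.73 (0.14 to 3.32, adjusted p = 0.994 in limma). H2-Ab1, a class II beta chain, lay at 2.89, 3.88 and 2.65 against 4.94, 4.16 and 2.70, a difference of 0.80 (-0.52 to 2.12). Cd74, the invariant chain, lay at 2.32, 3.12 and 2.45 against 3.97, 3.19 and 1.72, a difference of 0.34 (-1.49 to 2.16). The Ciita groups did not overlap, with the arrays numbered 2 at the border, whereas for H2-Ab1 and Cd74 the tumor-bearing samples held both the highest value and, at array 4, one within or below the tumor-free range. Class I genes (12 tested, none called, none with an unadjusted p under 0.05) had a median of 0.13.

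Markers of B and plasma cells and of macrophages and dendritic cells also had mostly positive differences. All 8 tested B and plasma cell markers were above 0, with a median of 0.66 (1.08 without tumor-bearing array 4), and 12 of 15 macrophage and dendritic cell markers were, with a median of 0.39 (0.77). None of either list was called or had an unadjusted p under 0.05 in limma. The summed level of the B and plasma cell markers was 26.6 to 41.6 in tumor-free and 31.0 to 62.5 in tumor-bearing samples, with Ms4a1, which encodes CD20, not well above background on any array. The macrophage and dendritic cell sum was 37.2 to 64.7 against 42.4 to 95.8. Both pairs of ranges overlapped, and the part of these cells in the class II values was not tested. C1qa, a complement component made by macrophages, lay at -2.61, -0.16 and -3.72 against -0.13, 0.05 and 0.47, a difference of 2.29 (-0.38 to 4.96). Jchain, the joining chain of secreted immunoglobulin, lay at 4.71, 4.10 and 4.42 against 5.09, 4.16 and 4.70.

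Of the 20 cell type lists, red blood cell markers were the only one whose summed level did not overlap between the groups. Among single genes tested, 4.23% did not overlap with tumor-bearing higher and 3.21% with tumor-bearing lower. The summed level was 0.504 to 4.68 in tumor-free and 5.38 to 11.4 in tumor-bearing samples, from 4 markers on the array of which 3 were tested. Hba-a1 made up most of the sum in every sample, so the sum largely followed that gene. The nearest values of the groups, 4.68 and 5.38, came from the near-identical arrays numbered 2. Hba-a1, alpha globin, lay at -1.57, 1.80 and 0.24 against 2.49, 2.02 and 3.40, a difference of 2.48 (0.39 to 4.57). Alas2, the erythroid heme synthesis enzyme, lay at -3.10, 0.13 and -1.83 against 0.02, 0.25 and -0.29, a difference of 1.59 (0.05 to 3.13). For Hba-a1 the tumor-bearing samples were the 3 highest, and for Alas2 the groups overlapped; neither was called (adjusted p = 0.994 in limma). Slc4a1, the band 3 anion exchanger, lay at -4.42, -3.10 and -4.16 against -3.80, -2.83 and -5.35, a difference of -0.10 (-1.47 to 1.27), with tumor-bearing sample 4 the lowest. Smooth muscle markers had a median of 0.37 (11 tested, 9 above 0, 1 with an unadjusted p under 0.05 in limma, none called). The highest difference was that of Cnn1, calponin, at 1.17, 2.44 and 1.44 against 2.75, 2.59 and 2.96. Fibroblast markers had a median of -0.28 (14 tested, 10 below 0, none called or with an unadjusted p under 0.05), with sums of 154 to 167 against 112 to 174. Of the neutrophil markers Elane, Cxcr2, Mmp8 and Retnlg were not well above background on any array, and the sum stayed at 0.170 to 0.365 against 0.163 to 0.383.

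No cytokine or interferon-stimulated gene passed the test. Of 12 tested cytokine and acute response genes 2 had an unadjusted p under 0.05, none was called, 10 were below 0, and the median was -0.64. That median was 0.32 without tumor-bearing array 4, so its direction rested on that array. Il1a, Il6, Csf2 and Csf3 were not well above background on any of the 8 arrays. Cxcl5, a neutrophil-attracting chemokine, lay at -1.29, -3.14 and -2.00 against -7.58, -3.29 and -4.71, and was well above background on 2 of 4 tumor-bearing arrays, so no size is given for its difference. Ccl4, a chemokine read by a probe with the run GTCTCCC, lay at 3.12, 3.66 and 2.98 against 4.18, 4.61 and 4.17, a difference of 1.07 (0.03 to 2.11). The serum amyloid gene Saa3 lay at 4.25, 6.13 and 5.54 against 6.35, 6.19 and 0.66. Among 21 tested interferon-stimulated genes 15 were below 0, none was called or had an unadjusted p under 0.05, and the median was -0.20 (0.15 without tumor-bearing array 4). Ifit1, an interferon-induced RNA-binding protein, lay at 2.11, 1.29 and -2.00 against -3.35, 0.85 and -2.14, and Isg15, the ubiquitin-like modifier, at 2.83, 3.13 and -0.15 against 0.94, 3.32 and -0.58. In both genes array 2 of each group was among the high samples and the rest were spread over several log2 units.

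Of the prostaglandin genes none of 17 tested was called or had an unadjusted p under 0.05 in limma, and the median was -0.29. Ptgs2, the inducible cyclooxygenase, lay at -2.03, -5.78 and -3.75 against -4.68, -6.23 and -6.69, and was well above background on 1 of 4 tumor-bearing arrays. Ptgs1, the constitutive form, lay at 2.20, 2.19 and 1.46 against 2.61, 2.09 and 0.72, and Hpgd, which degrades prostaglandins, at 2.61, 2.58 and 3.25 against 2.36, 2.59 and 0.58. Slco2a1, the prostaglandin transporter, had a difference of 1.78 (-0.28 to 3.84) at a probe with the run GTCTCCC and -0.78 when probes with that run were left out. Immediate early and heat shock genes (21 tested, 13 below 0, 1 with an unadjusted p under 0.05, none called) had a median of -0.38, or 0.18 without tumor-bearing array 4. Fos lay at 4.15, 3.18 and 4.43 against 2.88, 3.07 and 1.19, a difference of -1.54 (-2.84 to -0.24).

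The housekeeping lists gave the narrowest intervals. Of 25 oxidative phosphorylation genes 18 had an interval within 2-fold, as did 14 of 20 ribosomal protein genes, beside 9.41% of all genes, with medians of 0.05 and 0.06 and no gene called. Many members of both lists were bright. Rps14, a ribosomal protein gene, lay at 5.63 to 7.19 on the epithelium arrays, near Clca1 at 6.18 to 6.95. How far the top of the signal range narrowed these intervals was not tested, so they are not read as likeness of the groups. Unfolded protein response genes had 7 of 24 within 2-fold and a median of 0.04. Clock genes (14 tested) had a median of -0.40, glycolysis and hypoxia genes (21) of -0.16, fatty acid oxidation genes (23) of -0.12, and p53 and apoptosis genes (22) of -0.16, with none called in any of them.

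Named genes with the lowest moderated t were mostly dim in tumor-bearing epithelium. Slfn3, a Schlafen family gene, lay at -1.53, -3.84 and -2.59 in tumor-free and -7.43, -4.39 and -6.84 in tumor-bearing samples, of which only the second was well above background. Slfn4, of the same family, lay at 2.16, 0.05 and 0.47 against -2.61, -0.18 and -2.95, a difference of -2.81 (-4.55 to -1.06), and was well above background on all 8 arrays. In both, tumor-bearing sample 2 stood near tumor-free sample 2 and the other tumor-bearing samples were far lower. The others were Jrkl, Plekhg4, Tex19.1, L3mbtl3 (a difference of -1.77), Fabp7, Plscr4, Adam10 and Mro, each with an adjusted p of 0.994 in limma. Of the 10, 8 were well above background on at most 1 tumor-bearing array, and no size is given for their differences because most tumor-bearing readings were background. A gene entered the test by being well above background on every array of either group. This was met in tumor-free epithelium alone by 3074 genes (17.4%) and in tumor-bearing epithelium alone by 70 (0.397%). Dim genes therefore entered mainly through their detection on the tumor-free arrays, whether or not their level was higher there.

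No gene was well above background on every tumor-bearing array and on no tumor-free array. The opposite held for 68 of 27751 features, 32 of them named genes. The dimmest signal well above background lay at -4.92, -5.58 and -5.16 on tumor-bearing arrays 1, 3 and 4, higher than on the other arrays. The part of that detection limit in this count was not tested. For these features a fold is a lower bound on the difference of the group means, set against the dimmest signal still well above background. Btc, the growth factor betacellulin, was at least 2.88-fold lower in tumor-bearing epithelium, Prdm8 at least 2.53-fold, Rufy3 at least 1.76-fold, Esyt2 at least 1.54-fold and Siglecf, a sialic acid-binding lectin, at least 1.47-fold. Btc was read on 2 of 4 tumor-bearing arrays, since its spots on arrays 1 and 2 were left out as outliers. Rufy3 lay at -5.81 on tumor-free array 3 and at -3.86 on tumor-free array 4, near-identical arrays averaged as 1 sample, so its bound rests partly on array 4. The bounds allow for the detection limit and not for the spread between samples. These genes entered the test only by their tumor-free values, and none of them was called by limma.

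Without array 2 of both groups each group held 2 samples, and no gene was called by limma (1177 unadjusted p under 0.05). The highest was Sp5, a Wnt-induced transcription factor, at -6.38 and -8.13 in tumor-free against -2.45 and -3.15 in tumor-bearing samples (adjusted p = 0.116 in limma). It was well above background on 1 of 4 tumor-free and 3 of 4 tumor-bearing arrays, so no size is given. Array 2 lay at -7.58 and -7.79 in the respective groups, and the adenoma samples at 2.76 to 4.40. Cacna2d1, also well above background on 1 of 4 tumor-free arrays, Hapln4 (3.00), Prodh (3.07) and Shisa3 (2.67) followed. Among genes well above background on at least 1 remaining array of each group, the lowest moderated t was that of Slfn4, with a difference of -4.09 (adjusted p = 0.174 in limma).

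Some genes had wide ranges that did not follow tumor status. Retnlb, a goblet cell antibacterial resistin-like protein, lay at 6.09, -0.17 and 0.15 in tumor-free and 5.62, -0.20 and 6.07 in tumor-bearing samples, and Ang4, an antimicrobial angiogenin, at 5.91, -1.36 and -0.54 against 4.89, -1.22 and 5.33. In both genes 1 tumor-free and 2 tumor-bearing samples were high and the rest low, and the difference was 1.80 (-2.30 to 5.91) for Retnlb. Without tumor-bearing array 4 it was 0.69, and without tumor-free array 1 it was 3.84. Reg3b, a secreted lectin that was well above background on no other epithelium array, lay at -2.07 in tumor-bearing sample 4 and at -7.31 or below elsewhere in epithelium. Reg3g lay at 0.93 in that sample and at -3.83 or below in the others.

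Of the 10 genes with the widest range over the 6 samples, tumor-bearing sample 4 was the lowest for 8 and the highest for 2. Hoxd13, a homeobox gene of the hindgut (chr2:74514907-74514966 on mm7), lay at 1.30, 4.06 and 3.22 against 2.31, 3.89 and -6.43. Hoxd10 lay at -2.57, 1.44 and 0.44 against -0.56, 1.59 and -7.26, and Hoxb13, another posterior homeobox gene, at 4.49, 5.27 and 4.61 against 5.24, 5.25 and 1.00. Hoxb13 was chosen after its values were seen. In these 3 genes sample 4 was the lowest, with its Hoxd13 and Hoxd10 readings not well above background. Hoxa11, another posterior homeobox gene, was highest in sample 4, at 0.93, 0.74 and -0.69 against 0.82, 0.44 and 2.90. Of the 16 tested colon position genes 8 were above 0 and 8 below, none was called, and the median was -0.00. Among adenoma samples Hoxd13 lay at -8.10, -8.74, 4.18 and -7.30, a range as wide. Trpv3, a cation channel, lay at 3.11, 4.16 and 3.35 against 2.59, 3.80 and -7.37, and Cstdc6 at 3.74, 4.26 and 2.97 against 4.44, 4.23 and -7.43. Plet1, a surface protein of progenitor cells, was highest in sample 4, at 0.38, -0.97 and -3.12 against -1.49, -0.82 and 5.57. The place along the colon from which each sample was cut was not given in the sources used here, and its part in these values was not tested.

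**Figure D5:**
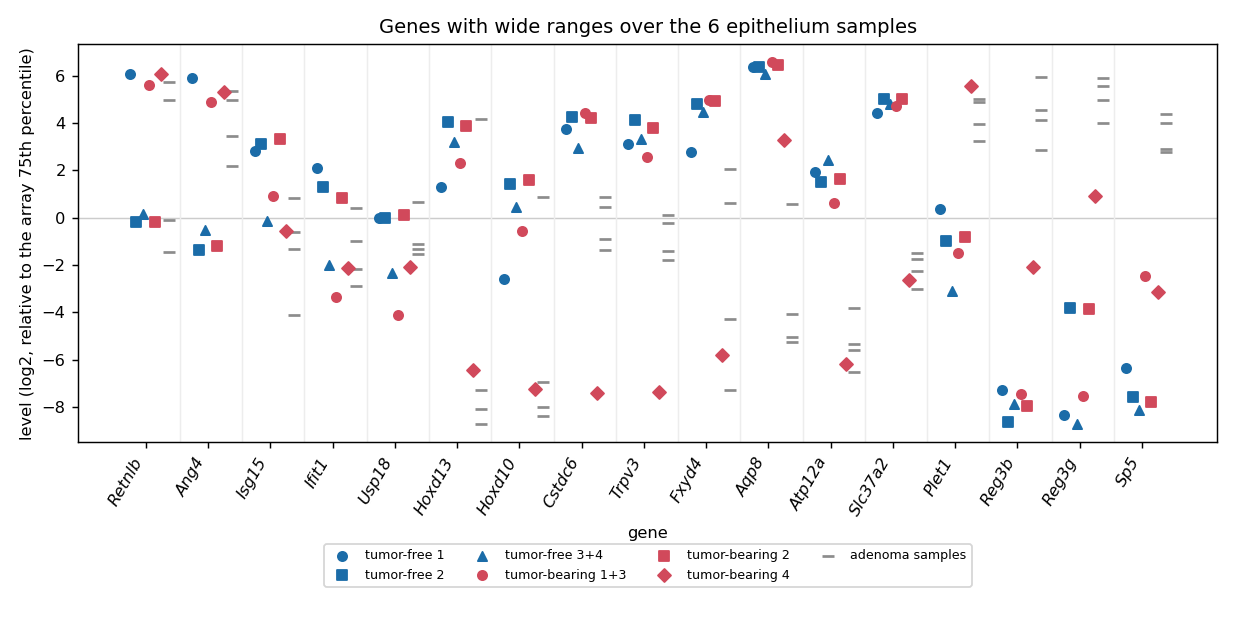
Levels (log2 relative to the array's 75th percentile) of 17 genes with wide ranges in the 3 tumor-free and 3 tumor-bearing samples, with the 4 adenoma samples as grey dashes. Retnlb and Ang4 are high in 1 tumor-free and 2 tumor-bearing samples, and tumor-bearing sample 4 is far below the others for Hoxd13, Trpv3 and Cstdc6.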

How the data were processed

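RNA (10 ng) from laser-microdissected colon cells was linearly amplified, labelled with Cy3 and hybridised to Agilent 4x44K arrays, per the labels' protocols. The authors' deposited scanner files hold intensity per spot, read with Agilent Feature Extraction 9.5.3 per the submitters' processing notes, background-subtracted and not normalized between arrays per the file headers, with other deposited columns that flag detection above background, saturation and outliers. The authors' deposited log2 value table, whose columns for tumor-bearing epithelium matched the files in reverse order, was an alternative only.

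Levels were log2 of processed intensity minus the 75th percentile of the 41174 non-control probes on the array; outlier spots were left out and the brightest probe of a gene was used. Near-identical arrays of a group were averaged (15 arrays, 10 samples). limma 3.58.1 (R 4.3.3) was fitted to all 4 groups, two-sided, with Benjamini-Hochberg adjustment over all genes tested and a threshold of 0.05; a gene was tested if well above background on every array of either epithelium group. The script was tested on simulated data. The precision is limited by 3 samples a group. Names came from RefSeq (GRCm38.p6), coordinates from the array design (mm7). Samples were grouped by their labels.

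The comparison and the gene lists were chosen with earlier results of these data known. Genes were named by rule: the 10 highest and 10 lowest moderated t among features with a gene name and signal above background in both groups, the 5 highest bounds, the 5 highest each way without array 2 of both groups, the 10 widest ranges, each list's highest and lowest member, and a fixed panel. Others named here are list members or were chosen after their values were seen. Alternatives changed background correction, scaling, filter, probe choice, blocks, weights and samples left out. Some items are not reported here.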

Additional observations from a re-analysis of the deposited data

How the results depend on the processing

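No gene was called by limma under any of the 28 alternatives. The lowest adjusted p in limma, 0.994 in the main fit, moved. It was 0.0544 without tumor-bearing array 2 and 0.116 without array 2 of both groups. With each array as its own sample, which counts near-identical arrays separately, it was 0.0663. The count of genes with an unadjusted p under 0.05 (500) and the count with an interval within 2-fold (1661) moved. The first was 3227 with no filter on dim probes, 3407 with each array as its own sample, 2756 with slide and 2772 with scan date as a random block, 1177 without array 2 of both groups, and 250 to 1184 over the fits that left out a replicate or sample. The second was 2637 with normexp background, 3031 with quantile normalization, 986 with median centring, 5046 with each array as its own sample, 918 with the epithelium groups only, 3997 in the authors' value table, 2985 with array weights, 4620 and 4157 with slide and scan date as a random block, 0 without array 2 of both groups, and 108 to 1816 over the fits that left out a replicate or sample. The lowest p count came without tumor-free arrays 3 and 4 (250), and array 2 of either group set the highest (1184 without tumor-free and 1097 without tumor-bearing array 2); without tumor-bearing array 4 it was 996. Probes with the run GTCTCCC were left out in 2 alternatives chosen after seeing the data, which gave 482 and, also without array 2 of both groups, 1167 genes with an unadjusted p under 0.05 and 1668 and 0 intervals within 2-fold.

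The labels number the arrays 1 to 4 in both groups. Same-numbered arrays correlated in their deviations from the group means at 0.15, 0.36, -0.22 and 0.28, and 4 of 8 arrays correlated best with their own number, so the numbers were not taken to pair the samples. With the replicate block, on unaveraged arrays, 2362 genes had an unadjusted p under 0.05 and 3750 an interval within 2-fold.

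Of 152 named genes tested, 99 kept 1 sign under all alternatives and none was called. Of 46 lists, 10 kept the sign of their median in all 29 settings. The median of all genes shifted to 0.19 with no filter, 0.20 without tumor-bearing array 4 and 0.13 with array weights. On 3 of the tumor-bearing arrays the higher detection limit left genes below about -5 as background.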
